A study of Mus musculus with 42 samples.

Results

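Microglia gated as positive for Ki67 protein (Ki67+) were compared with microglia gated as negative (Ki67-) in mice 6 months old. The comparison used all 9 libraries of that age among the 42 of the series, chosen by the age in their labels, with 4 Ki67+ libraries (2 from WT and 2 from APP/PS1 mice) set against 5 Ki67- libraries (3 from WT and 2 from APP/PS1 mice). All mice were male C57BL/6. WT mice carried no transgene, and APP/PS1 mice carried a chimeric mouse and human amyloid precursor protein gene with the Swedish mutation together with a mutant human presenilin 1 gene, both under the mouse prion protein promoter, a combination that lays down amyloid plaques in the brain with age. Brains were perfused, dissociated and cleaned on Percoll, and the cells were fixed with paraformaldehyde before nuclear staining. CD11b+/CD45+ cells with a DAPI-stained nucleus were gated on Ki67 protein, and up to 400 sorted cells went into each library. The labels do not say which libraries came from the same mouse, so the p-values measure the spread between libraries, which may be partly technical. For the gene calls below, that spread was estimated within groups over all 42 libraries.

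Ki67 is a nuclear protein that coats mitotic chromosomes and is present in every phase of the active cell cycle, while resting cells degrade it. Microglia are the macrophages of the brain, they depend on Csf1r signalling, and they keep their number by local division. Genes needed for DNA synthesis are switched on by E2F factors before replication, and genes needed for mitosis are switched on later. The mitotic genes are controlled through the DREAM and MuvB complexes. These bind a short element named CHR in the promoters, often next to a CCAAT box bound by NF-Y.

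Each value is a level on the deposited log2 scale. A log2 fold change is the mean difference Ki67+ minus Ki67- on that scale within genotype, averaged over both genotypes with weights set by their library numbers unless 1 genotype is named. A gene was tested where its mean reached 7 in at least 1 of the 4 groups at 6 months, which kept 13363 of 19151 genes. A gene was called at an adjusted p (limma, Benjamini-Hochberg) under 0.05. The scale flattens at its lower end, with a modal value of 6.3 over the whole table, so that changes close to it are understated. Values under 6 lie below that level, and a change that reaches them comes out larger than with such values raised to 6.3. They were counted for 1036 and 1671 genes in the WT Ki67+ libraries, for 470 and 236 in the APP/PS1 Ki67+ libraries, for 136 to 363 in the Ki67- libraries and for 33 to 461 in the 33 libraries of the other ages. The WT Ki67+ libraries also stood apart in their microglial genes, as described below, and each main count is therefore given for each genotype as well. The APP/PS1 log2 fold change uses no WT library, but the WT libraries enter the shared spread on which the APP/PS1 calls rest. In all 9 libraries the microglial genes Cx3cr1, P2ry12, Tmem119 and Csf1r lay between percentiles 99.4 and 100 of all genes.

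Mki67, the gene of the antigen used for the sort, lies on chromosome 7 from 135689784 to 135716361 of GRCm38. Its level was 8.08 and 7.61 in the WT Ki67+, 7.44, 7.91 and 7.88 in the WT Ki67-, 8.23 and 6.96 in the APP/PS1 Ki67+ and 7.34 and 8.31 in the APP/PS1 Ki67- libraries. The 4 Ki67+ and 5 Ki67- values overlapped, with the lowest value of all in an APP/PS1 Ki67+ library and the highest in an APP/PS1 Ki67- library. The difference was -0.05 (two-sided exact permutation test with Ki67 labels exchanged within genotype, p = 0.833, where the smallest p the 60 assignments allow is 0.0167), and its sign turned with 1 library left out (0.21 without the second APP/PS1 Ki67+ library). The plot of 12 genes by library shows Mki67 beside genes that did separate.

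**Figure D1:**
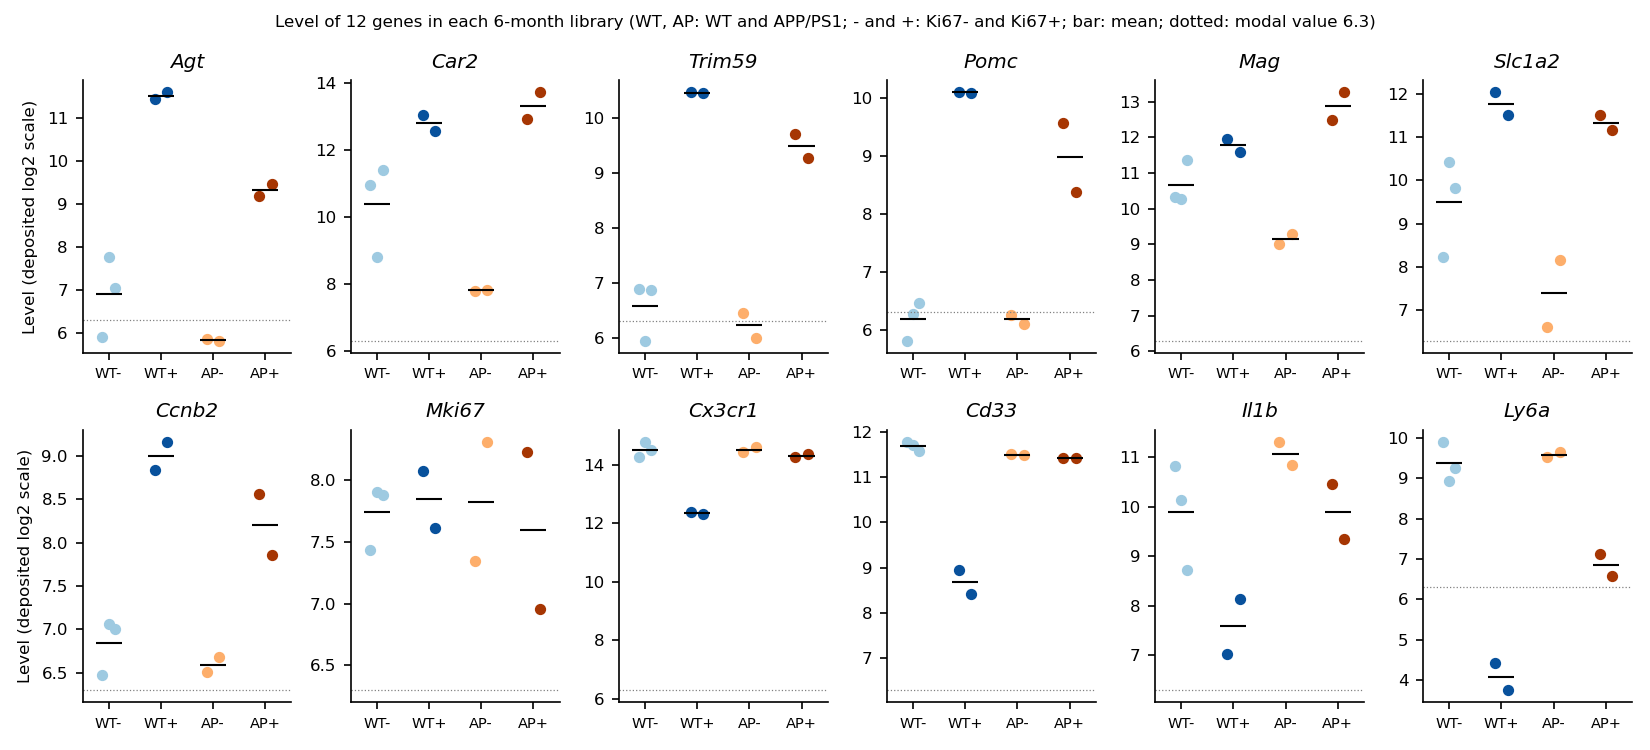
Level of 12 genes on the deposited log2 scale (y axis, a range of its own for each gene) in each of the 9 libraries at 6 months, grouped on the x axis by genotype and Ki67 state, with a bar at each group mean and a dotted line at the modal value of 6.3. Agt, Car2, Trim59 and Pomc are higher in all 4 Ki67+ libraries, Mki67 overlaps, and Cx3cr1 and Cd33 are low in the 2 WT Ki67+ libraries.

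Ki67+ and Ki67- microglia differed widely. Limma called 3005 genes higher (22.5% of the genes tested) and 2806 lower (21.0%) in Ki67+ cells, with a median log2 fold change of 0.005 over all genes tested. For 1830 of the higher genes (13.7% of the genes tested) all 4 Ki67+ values lay above all 5 Ki67- values, and for 1439 of the lower genes (10.8%) they lay below. The mean of the 5 Ki67- libraries was under 7 for 1078 of the higher genes (35.9%), and that of the 4 Ki67+ libraries for 1112 of the lower genes (39.6%). Such genes may have passed the filter only through groups where they are high, and the counts of calls hold that selection. In WT mice 2653 genes were higher (19.9%) and 2690 lower (20.1%), and in APP/PS1 mice 789 (5.90%) and 395 (2.96%). These shares are the background for the counts of list members in 1 genotype given below. The APP/PS1 counts dropped to 306 and 78 without the second APP/PS1 Ki67+ library, and 1751 genes were lower in WT without the second WT Ki67+ library. Both genotypes called 603 genes higher (4.51% of the genes tested), which is 22.7% of the WT and 76.4% of the APP/PS1 calls, and 278 lower (2.08%), which is 10.3% and 70.4%. Opposite calls were made for 1 gene that was higher in WT and 4 that were lower in WT. Called genes did not stand out in transcript size, with a median longest transcript of 3346 bases for higher, 3479 for lower and 3450 for uncalled genes, and a median GC content of 48.9%, 50.2% and 49.3%.

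Among the 12 genes that rose most without overlap were genes known best from other brain cells and glands. Agt, which encodes angiotensinogen and in the brain is made mainly by astrocytes, had a level of 11.43 and 11.59 in the WT Ki67+, 5.92, 7.78 and 7.06 in the WT Ki67-, 9.19 and 9.47 in the APP/PS1 Ki67+ and 5.86 and 5.83 in the APP/PS1 Ki67- libraries. All 4 Ki67+ values exceeded all Ki67- values, and the log2 fold change was 4.09 (SE 0.34, adjusted p = 1.57e-09). Car2, carbonic anhydrase 2, which is abundant in oligodendrocytes, had a level of 13.05 and 12.55 in the WT Ki67+, 10.94, 8.80 and 11.40 in the WT Ki67-, 12.92 and 13.71 in the APP/PS1 Ki67+ and 7.78 and 7.82 in the APP/PS1 Ki67- libraries. Its Ki67- values spread by over 3 units, with the lowest in APP/PS1 libraries, and the log2 fold change was 3.83 (SE 0.40, adjusted p = 6.06e-08). Pomc, the precursor of corticotropin and melanocyte-stimulating hormone, had a level of 10.09 and 10.09 in the WT Ki67+, 5.81, 6.27 and 6.46 in the WT Ki67-, 9.57 and 8.38 in the APP/PS1 Ki67+ and 6.26 and 6.10 in the APP/PS1 Ki67- libraries. Its 5 Ki67- values lay near the floor of the scale, and the log2 fold change was 3.40 (SE 0.65, adjusted p = 0.000165). Also among the 12 were Trim59 (a TRIM-family ubiquitin ligase, log2 fold change 3.60), Paqr6 (a membrane progestin receptor, 3.47), Tmem151a (3.44), Myl9 (a regulatory myosin light chain of smooth muscle, 3.42), Apod (a lipid carrier, 3.34), Gal3st1 (the enzyme that makes the myelin lipid sulfatide, 3.33), Fabp5 (a fatty acid carrier, 3.22) and septin 4 (spelled Sept04 in the table, 3.20). The 2 other pituitary hormone genes looked at, chosen after values were seen, had all 4 Ki67+ values above the Ki67- values as well. Gh, growth hormone, had Ki67+ values of 9.34, 10.92, 10.68 and 8.99 and Ki67- values from 6.14 to 7.52, with a log2 fold change of 3.08 (SE 1.20, adjusted p = 0.0391). Prl, prolactin, had Ki67+ values of 7.74, 8.10, 7.82 and 6.88 and Ki67- values from 5.98 to 6.43, with a log2 fold change of 1.45 (SE 0.40, adjusted p = 0.0045). The call of Gh was lost with 1 library left out (adjusted p = 0.119 without the second WT Ki67+ library).

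The 12 genes that fell most without overlap were led by Ly6a, the surface antigen Sca-1 of endothelial and blood progenitor cells. Its level was 4.42 and 3.76 in the WT Ki67+, 9.89, 8.93 and 9.26 in the WT Ki67-, 7.13 and 6.57 in the APP/PS1 Ki67+ and 9.52 and 9.64 in the APP/PS1 Ki67- libraries, and the log2 fold change was -4.11 (SE 0.52, adjusted p = 8.06e-07). The 2 WT Ki67+ values lay far under the floor of the scale and the 2 APP/PS1 Ki67+ values between the floor and the Ki67- values. With values under the floor raised to it, an alternative added after the data were seen, the log2 fold change of Ly6a was -2.91. Acad8, an enzyme of valine breakdown, had a level of 5.88 and 5.70 in the WT Ki67+, 9.74, 9.77 and 9.51 in the WT Ki67-, 7.34 and 6.89 in the APP/PS1 Ki67+ and 10.27 and 10.21 in the APP/PS1 Ki67- libraries and a log2 fold change of -3.53 (SE 0.26, adjusted p = 2.99e-10). Alox5, the 5-lipoxygenase that opens leukotriene synthesis, had a level of 5.30 and 3.91 in the WT Ki67+, 9.44, 8.57 and 9.42 in the WT Ki67-, 8.34 and 7.77 in the APP/PS1 Ki67+ and 10.23 and 9.82 in the APP/PS1 Ki67- libraries and a log2 fold change of -3.37 (SE 0.30, adjusted p = 6.67e-09). In both genes all Ki67+ values lay below all Ki67- values, in each genotype. The remaining 9 were Lrrc75a (log2 fold change -3.49), Bag5 (a co-chaperone of Hsp70, -3.47), Ppp1r13b (a partner of p53, -3.43), Kctd2 (-3.20), Rnf121 (a ubiquitin ligase, -3.16), Engase (a glycan-cleaving enzyme, -3.12), Trim30d (-2.92), B4galnt1 (a ganglioside synthase, -2.86) and Camk2b (a calcium-dependent kinase, -2.86). The WT Ki67+ mean was under 6 for 11 of these 12 genes and for 477 of all 2806 lower genes (17.0%), and the Ki67- mean in either genotype was under 6 for 154 of the 3005 higher genes (5.12%).

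Genes of G2 and mitosis rose more often than they fell. Of 56 genes listed, 49 passed the filter, and 19 of these rose (38.8%) and 1 fell (2.04%) in Ki67+ cells, beside 22.5% and 21.0% of all genes tested, with a median log2 fold change of 0.41. Cenpe, a kinesin of the kinetochore, had a level of 8.67 and 8.84 in the WT Ki67+, 6.03, 6.07 and 5.94 in the WT Ki67-, 7.96 and 7.40 in the APP/PS1 Ki67+ and 6.84 and 5.98 in the APP/PS1 Ki67- libraries, and the log2 fold change was 2.07 (SE 0.38, adjusted p = 0.000102). Ccnb2, a mitotic cyclin, had a level of 8.84 and 9.16 in the WT Ki67+, 6.47, 7.06 and 7.00 in the WT Ki67-, 8.56 and 7.85 in the APP/PS1 Ki67+ and 6.50 and 6.68 in the APP/PS1 Ki67- libraries, and the log2 fold change was 1.91 (SE 0.32, adjusted p = 3.5e-05). Spc25, a subunit of the Ndc80 kinetochore complex, had a level of 8.83 and 7.70 in the WT Ki67+, 7.33, 6.73 and 6.48 in the WT Ki67-, 8.88 and 7.98 in the APP/PS1 Ki67+ and 6.12 and 6.25 in the APP/PS1 Ki67- libraries, and the log2 fold change was 1.79 (SE 0.31, adjusted p = 5.18e-05). In all 3 genes the 4 Ki67+ values lay above the 5 Ki67- values, with the WT Ki67+ values of Cenpe and Ccnb2 above those of APP/PS1. The one member that fell was Ube2c, a ubiquitin-conjugating enzyme of the anaphase-promoting complex, with a log2 fold change of -0.80 (SE 0.33, adjusted p = 0.05, just under the threshold before rounding). It was not called once values under the floor were raised (adjusted p = 0.076) or without the second WT Ki67+ library (adjusted p = 0.277). Without the first APP/PS1 Ki67+ library, in contrast, 5 of the 49 were called lower. Some of the best known members, chosen after values were seen, did not pass the test. Top2a, the topoisomerase that untangles chromosomes, had a log2 fold change of -0.63 (SE 0.36, adjusted p = 0.165), Ccnb1 one of 0.40 (SE 0.32, adjusted p = 0.319) and Cdk1 one of 0.38 (SE 0.34, adjusted p = 0.379). Top2a was called lower without the first APP/PS1 Ki67+ library, with a log2 fold change of -1.08 (adjusted p = 0.0173).

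In WT mice 17 of the 49 genes rose (34.7%, beside 19.9% of all genes tested) and 5 fell (10.2%, beside 20.1%), with a median of 0.52. In APP/PS1 mice 4 rose (8.16%, close to the 5.90% of all genes tested) and 0 fell (beside 2.96%), with a median of 0.38. Limma called 0 of the 49 for a difference between genotypes (4 higher and 2 lower in APP/PS1 at an unadjusted p under 0.05). The mean level of the list was 7.94 and 7.59 in the WT Ki67+, 7.23, 7.28 and 7.07 in the WT Ki67-, 7.85 and 7.24 in the APP/PS1 Ki67+ and 7.04 and 7.06 in the APP/PS1 Ki67- libraries. The second APP/PS1 Ki67+ library lay within the range of the WT Ki67- libraries. Without it, or without the first, 1 of the 49 was called higher in APP/PS1 mice, and 0 to 5 were called lower in WT mice with 1 WT library left out. Many of these genes were low, and 23, 21 and 22 of the 49 were under 7 in the WT Ki67- libraries. In the APP/PS1 Ki67- libraries 31 and 25 were, against 6 and 17 and 3 and 26 in the Ki67+ libraries of WT and APP/PS1. Members with low Ki67- means, Cenpe, Ccnb2 and Spc25 among them, passed the filter through the Ki67+ libraries. That favours calls of a rise, and the share of the list that rose holds this selection.

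The promoters of these genes are shown because mitotic genes share the CHR element. RefSeq promoters of GRCm38.p6, from 250 bases before to 50 bases after each start, were matched to 40 of the 49 tested genes (42 promoters). The letters TTTGAA of the CHR element, on either strand, were present in 30 of these 42 promoters (71.4%) and in 5878 of all 32851 promoters of the same length (17.9%). The letters CCAAT, on either strand, were present in 33 of the 42 (78.6%) and in 37.4% of all promoters. Among the 17 promoters of members that rose, 11 held TTTGAA (64.7%), and among the 24 of members that were not called, 18 did (75.0%). Capitals mark the CHR letters and the CCAAT box, on either strand, in the promoters of the 3 members that rose most and of Mki67, which was not called.
Cenpe, chr3:135212313-135212612, plus strand: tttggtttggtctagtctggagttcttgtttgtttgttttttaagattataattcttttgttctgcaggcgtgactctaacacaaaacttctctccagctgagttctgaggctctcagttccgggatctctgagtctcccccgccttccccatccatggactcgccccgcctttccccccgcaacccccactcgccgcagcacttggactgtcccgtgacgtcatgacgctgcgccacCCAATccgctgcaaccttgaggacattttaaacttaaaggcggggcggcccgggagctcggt
Ccnb2, chr9:70421505-70421804, minus strand: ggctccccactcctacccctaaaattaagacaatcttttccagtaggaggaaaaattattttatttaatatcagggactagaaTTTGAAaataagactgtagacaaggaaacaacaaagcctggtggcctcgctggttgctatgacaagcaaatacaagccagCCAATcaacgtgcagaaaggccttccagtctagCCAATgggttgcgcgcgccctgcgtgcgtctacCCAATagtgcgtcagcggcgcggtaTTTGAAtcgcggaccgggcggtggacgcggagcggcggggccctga
Spc25, chr2:69206164-69206463, minus strand: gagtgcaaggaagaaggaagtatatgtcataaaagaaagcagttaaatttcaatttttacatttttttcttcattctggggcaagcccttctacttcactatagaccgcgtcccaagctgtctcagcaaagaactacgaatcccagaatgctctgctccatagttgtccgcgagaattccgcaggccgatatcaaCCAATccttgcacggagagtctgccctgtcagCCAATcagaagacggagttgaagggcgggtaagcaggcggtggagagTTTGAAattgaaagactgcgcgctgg
Mki67, chr7:135716330-135716629, minus strand: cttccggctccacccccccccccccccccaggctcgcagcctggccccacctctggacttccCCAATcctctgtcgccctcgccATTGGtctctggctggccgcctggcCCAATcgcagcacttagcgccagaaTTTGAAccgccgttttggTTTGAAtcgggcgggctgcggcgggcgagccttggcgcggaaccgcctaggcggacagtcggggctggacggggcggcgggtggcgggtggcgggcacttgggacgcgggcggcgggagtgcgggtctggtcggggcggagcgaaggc
The Ccnb2 and Spc25 windows hold both elements around the start, the Cenpe window holds a CCAAT box without TTTGAA, and the Mki67 window holds more than 1 copy of each.

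**Figure D2:**
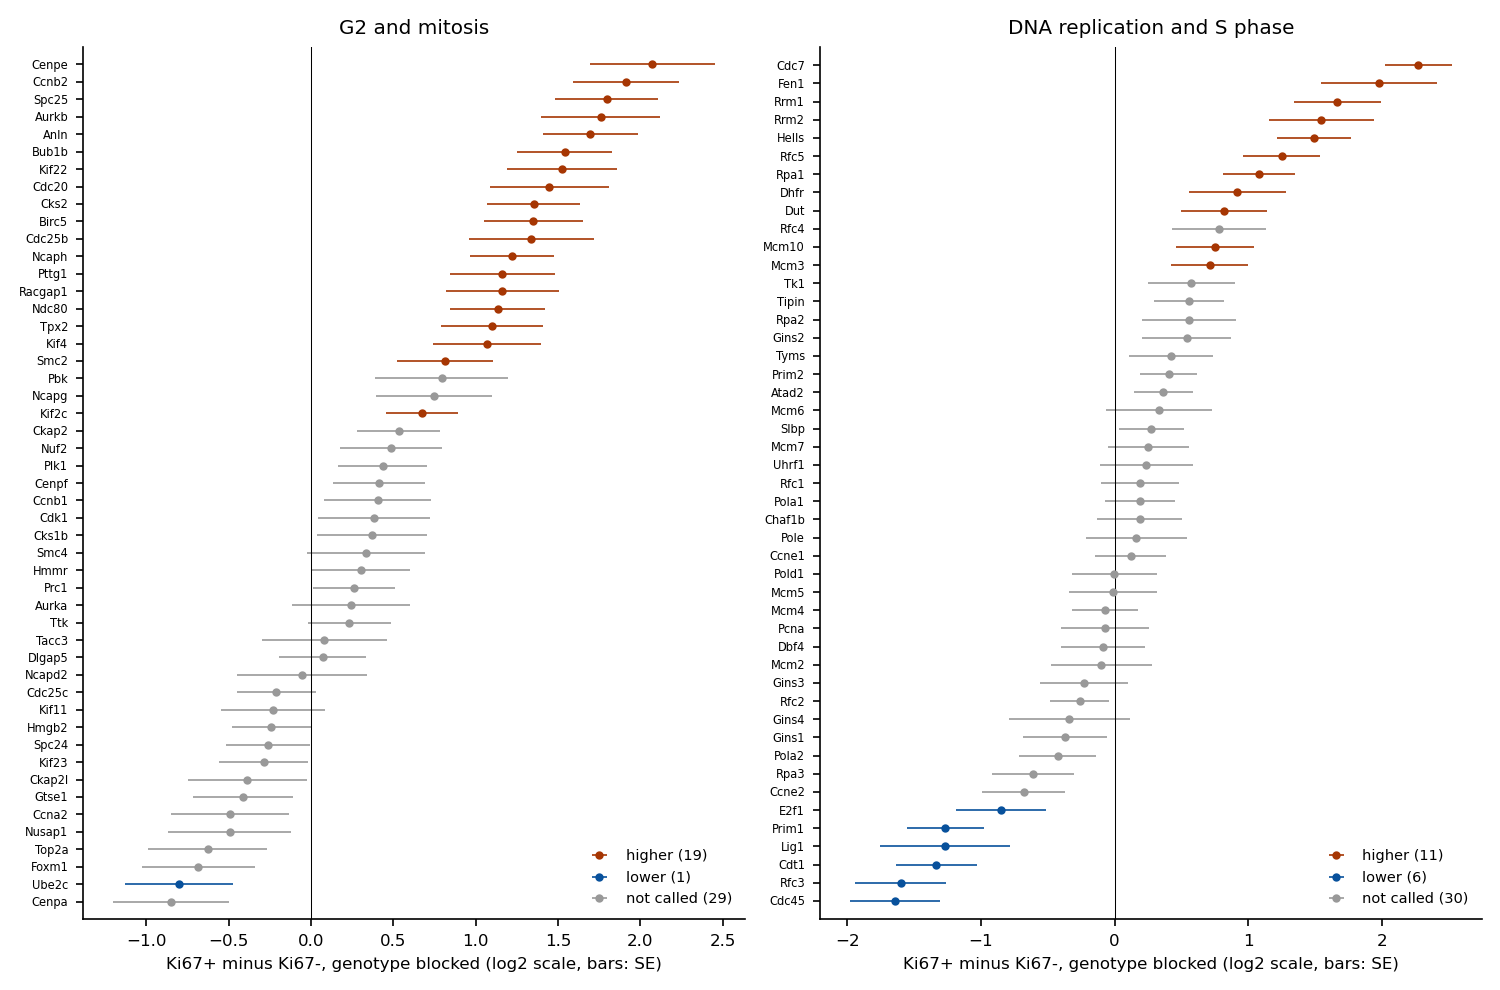
Log2 fold change of Ki67+ against Ki67- microglia with genotype blocked (x axis, bars are the SE from limma) for the 49 tested genes of G2 and mitosis and the 47 of DNA replication and S phase (y axis). In the first list 19 genes were called higher and 1 lower, and in the second 11 and 6, with Cenpe and Cdc7 at the top.

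Genes of DNA replication and S phase were called higher about as often as all genes. Of 47 tested members, from 50 listed, 11 rose (23.4%, beside 22.5% of all genes tested) and 6 fell (12.8%, beside 21.0%), with a median log2 fold change of 0.19. Cdc7, the kinase that fires replication origins, had group means of 8.89 ± 0.44 in WT Ki67+ (SD, n = 2) and 8.22 ± 0.31 in APP/PS1 Ki67+ libraries (SD, n = 2), above Ki67- values from 5.95 to 7.17, and a log2 fold change of 2.27 (SE 0.25, adjusted p = 1.21e-07). Fen1, which trims Okazaki fragments, rose by 1.98 (SE 0.43, adjusted p = 0.000673), and Rrm1, the large subunit of ribonucleotide reductase, by 1.67 (SE 0.32, adjusted p = 0.000173). Cdc45, part of the replicative helicase, had a log2 fold change of -1.65 (SE 0.34, adjusted p = 0.000329), Rfc3, a clamp loader subunit, one of -1.60 (SE 0.34, adjusted p = 0.000458), and Cdt1, which licenses origins and is destroyed once S phase begins, one of -1.33 (SE 0.30, adjusted p = 0.000905). Of the 3, only Cdt1 had Ki67+ values that all lay below the Ki67- values. TTTGAA was present in 7 of 42 promoters of the 36 tested members that matched (16.7%), a share close to the 17.9% of all promoters.

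Of 16 cell cycle inhibitors tested, from 17 listed, 2 rose and 2 fell (12.5% each, beside 22.5% and 21.0% of all genes tested, median -0.14). Rbl2, the pocket protein p130 of the DREAM complex, rose by 1.68 (SE 0.29, adjusted p = 4.18e-05) and Gadd45a, a stress-response gene, by 0.81 (SE 0.30, adjusted p = 0.0319). Cdkn1c, the inhibitor p57, had a level of 5.64 and 6.40 in the WT Ki67+, 9.41, 8.76 and 8.86 in the WT Ki67-, 7.76 and 7.99 in the APP/PS1 Ki67+ and 8.92 and 8.28 in the APP/PS1 Ki67- libraries and a log2 fold change of -1.96 (SE 0.30, adjusted p = 9.62e-06), and Cdkn2d, the inhibitor p19 of Cdk4 and Cdk6, one of -0.85 (SE 0.32, adjusted p = 0.0321). The calls of Gadd45a (adjusted p = 0.157 without the second WT Ki67+ library) and Cdkn2d (adjusted p = 0.127 without the first) were lost with 1 library left out.

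Genes of microglial identity were lower in Ki67+ cells of WT mice, and the effect differed between genotypes. Of 25 pan-microglial and myeloid genes 18 fell (72.0%) and 0 rose (median -0.88), and of 29 homeostatic genes, from 30 listed, 16 fell (55.2%) and 0 rose (median -0.54), beside 21.0% of all genes tested that fell. In WT mice 20 of the 25 and 20 of the 29 fell, with medians of -1.55 and -1.23. In APP/PS1 mice limma called 0 of either list (1 of each at an unadjusted p under 0.05), with medians of 0.05 and 0.08. The difference between genotypes itself was called for 15 of the 25 and 12 of the 29 genes, all with a higher value in APP/PS1, against 2.63% of all genes tested. These counts rested on single libraries, with 7 of the 25 and 5 of the 29 without the second WT Ki67+ library and 4 and 4 without the first APP/PS1 Ki67+ library, and without the former 10 of the 29 homeostatic genes fell in the blocked comparison. The mean level of the pan-microglial list was 11.18 and 10.97 in the WT Ki67+ libraries and 12.51, 12.73 and 12.37 in the WT Ki67- libraries. In APP/PS1 mice it was 12.75 and 12.56 in the Ki67+ and 12.62 and 12.66 in the Ki67- libraries. The 2 WT Ki67+ libraries therefore lay over 1 unit below the other 7, which overlapped each other. In bulk libraries such as these, fewer cells of a type and less of its RNA per cell cannot be told apart.

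Cx3cr1, the fractalkine receptor, lies on chromosome 9 from 119901616 to 120069879 of GRCm38 and had a level of 12.39 and 12.30 in the WT Ki67+, 14.26, 14.77 and 14.49 in the WT Ki67-, 14.24 and 14.36 in the APP/PS1 Ki67+ and 14.41 and 14.59 in the APP/PS1 Ki67- libraries. The WT log2 fold change was -2.16 (SE 0.25, adjusted p = 4.6e-07), that in APP/PS1 was -0.20 (SE 0.28, adjusted p = 0.706), and the difference between them was 1.96 (SE 0.38, adjusted p = 0.0049). Trem2, the lipid receptor whose variants alter Alzheimer's disease risk, had a level of 11.29 and 10.63 in the WT Ki67+, 13.47, 13.61 and 13.17 in the WT Ki67-, 13.80 and 13.44 in the APP/PS1 Ki67+ and 13.78 and 13.90 in the APP/PS1 Ki67- libraries, and its WT log2 fold change was -2.45 (SE 0.27, adjusted p = 2.16e-07) against -0.22 (SE 0.30, adjusted p = 0.693) in APP/PS1. Tyrobp, the signalling adaptor of Trem2, had a WT log2 fold change of -1.55 (SE 0.32, adjusted p = 0.000415) and one of 0.34 (SE 0.35, adjusted p = 0.588) in APP/PS1. Cd33, an inhibitory sialic acid receptor, had a level of 8.95 and 8.42 in the WT Ki67+, 11.78, 11.71 and 11.58 in the WT Ki67-, 11.43 and 11.43 in the APP/PS1 Ki67+ and 11.51 and 11.49 in the APP/PS1 Ki67- libraries, and the WT log2 fold change was -3.00 (SE 0.29, adjusted p = 3.63e-08). The 2 APP/PS1 Ki67+ values of Cd33 differed from the 2 Ki67- values by less than 0.1.

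The study names further microglial genes for this age, as higher in Ki67+ cells of APP/PS1 than of WT mice. That is another comparison than Ki67+ against Ki67-. Their Ki67 log2 fold changes were also lower in WT than in APP/PS1 mice. Irf8, a transcription factor of myeloid cells, had a log2 fold change of -2.03 in WT and -0.17 in APP/PS1, and Csf1r, the receptor that sustains microglia, -1.54 and -0.33. Aif1, which encodes Iba1, had -1.96 and 0.05, and the lectin Siglech -1.92 and 0.08. Each of these 4 was called in WT, was not called in APP/PS1 and was called for the difference between genotypes (limma adjusted p of 0.0155, 0.0451, 0.00716 and 0.0172). P2ry12 and Tmem119 are named by the study as microglial markers that show the purity of its samples, not for this age. P2ry12, a purinergic receptor of resting microglia, had -1.15 and 0.50, with a blocked log2 fold change of -0.40 (SE 0.22, adjusted p = 0.14). Tmem119 had -1.26 and -0.25, and its difference between genotypes was not called (adjusted p = 0.204). In the blocked comparison the calls of Tyrobp (adjusted p = 0.331) and Siglech (adjusted p = 0.0852) were lost without the second WT Ki67+ library, and P2ry12 was called lower without the first APP/PS1 Ki67+ library (adjusted p = 0.0422). The members of the 2 lists that fell most in the blocked comparison, besides Cd33 and Trem2, were Slc2a5, a fructose transporter (-1.36), Olfml3, a secreted matrix protein (-1.27), the transcription factor Runx1 (-1.53) and Itgam, which encodes the CD11b used for gating (-1.41).

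**Figure D3:**
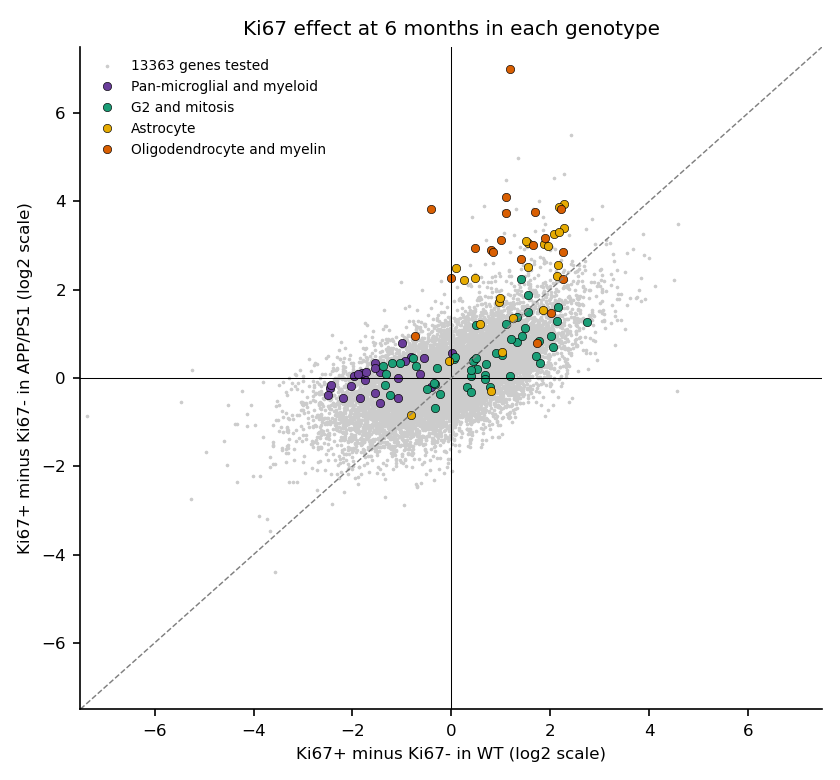
Ki67+ minus Ki67- log2 fold change in WT (x axis) and in APP/PS1 mice (y axis) at 6 months for the 13363 genes tested, with 4 gene lists in colour and a dashed line of equal effects. Pan-microglial genes lie mostly left of 0 in WT and near 0 in APP/PS1, while astrocyte and oligodendrocyte genes lie mostly above 0 in APP/PS1 and mostly above the dashed line.

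PU.1, encoded by Spi1, is the factor that opens myeloid promoters, and GAGGAA is the core of the sequence it binds. On either strand this core was present in 12 of 20 promoters of the 16 tested pan-microglial genes that matched (60.0%), in 9 of 26 promoters of 19 homeostatic genes (34.6%) and in 28.3% of all promoters. In the homeostatic list it was present in 7 of 12 promoters of members that fell and in 2 of 14 of those not called, and in the pan-microglial list in 8 of 13 and 4 of 7. The promoters of 3 genes that fell in WT are shown, with GAGGAA or its reverse complement in capitals.
Trem2, chr17:48346151-48346450, plus strand: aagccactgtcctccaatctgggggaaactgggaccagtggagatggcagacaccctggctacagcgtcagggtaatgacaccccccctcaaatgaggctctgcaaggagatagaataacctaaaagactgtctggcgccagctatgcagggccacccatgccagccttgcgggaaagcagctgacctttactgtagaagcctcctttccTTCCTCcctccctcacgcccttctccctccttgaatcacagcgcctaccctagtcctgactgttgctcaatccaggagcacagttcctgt
Itgam, chr7:128062390-128062689, plus strand: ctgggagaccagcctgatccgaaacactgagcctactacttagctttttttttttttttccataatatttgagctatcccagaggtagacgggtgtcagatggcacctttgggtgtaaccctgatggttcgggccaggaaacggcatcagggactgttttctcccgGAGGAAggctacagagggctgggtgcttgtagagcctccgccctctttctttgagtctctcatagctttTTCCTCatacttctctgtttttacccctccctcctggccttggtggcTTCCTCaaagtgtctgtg
Cd33, chr7:43533122-43533421, minus strand: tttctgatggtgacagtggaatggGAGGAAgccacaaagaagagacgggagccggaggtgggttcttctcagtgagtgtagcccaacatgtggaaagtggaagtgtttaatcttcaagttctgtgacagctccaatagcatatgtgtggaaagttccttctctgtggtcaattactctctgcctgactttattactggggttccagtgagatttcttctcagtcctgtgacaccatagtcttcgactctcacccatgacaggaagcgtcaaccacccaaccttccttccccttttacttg
Each of these windows holds at least 1 copy, and a match of 6 letters is a description of the sequence, not a binding site.

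**Figure D4:**
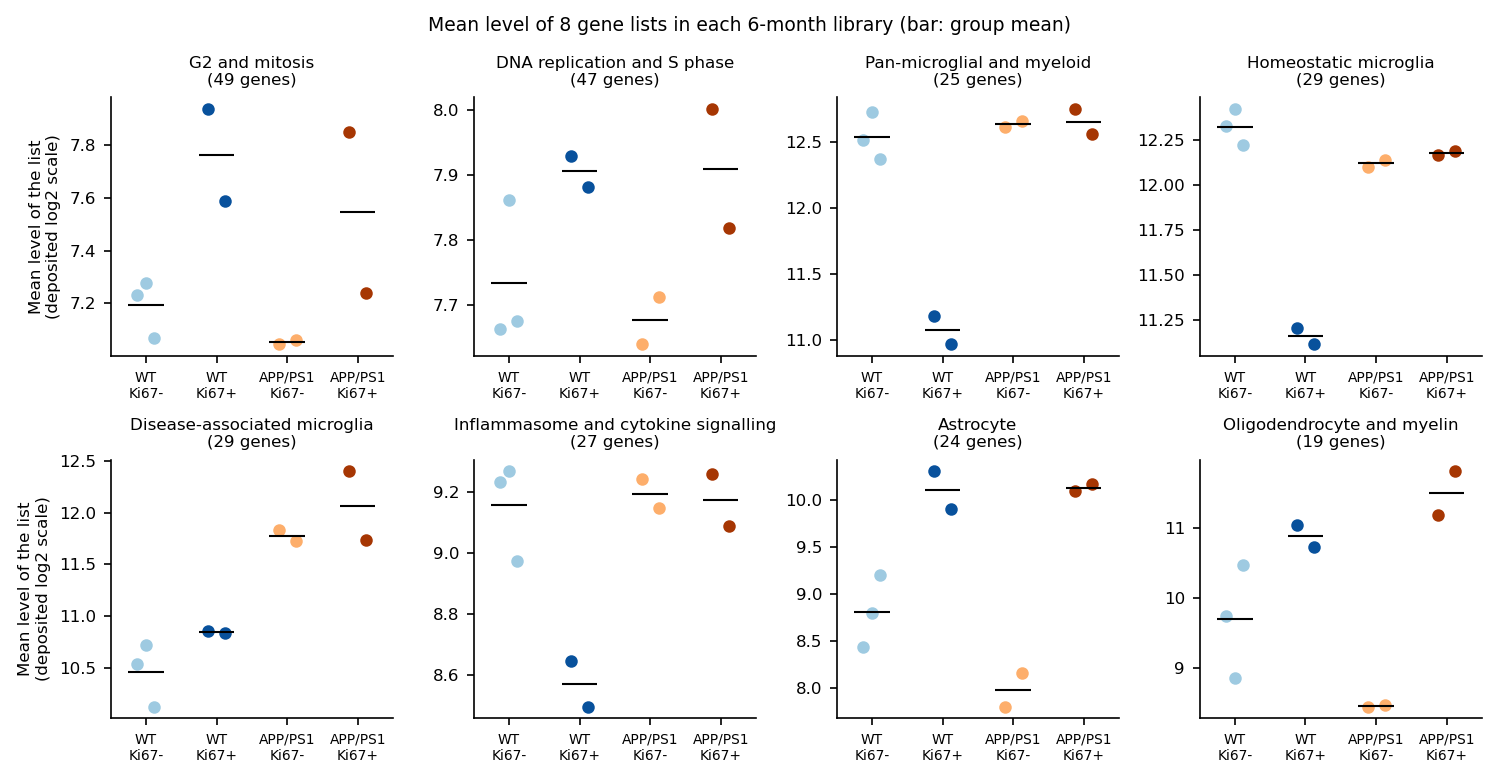
Mean level of 8 gene lists on the deposited log2 scale (y axis, a range of its own for each list) in each of the 9 libraries at 6 months, grouped on the x axis by genotype and Ki67 state, with a bar at each group mean. The WT Ki67+ libraries lie over 1 unit below all others for pan-microglial genes, and the Ki67+ libraries lie above the Ki67- libraries for astrocyte and oligodendrocyte genes in both genotypes.

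Genes of disease-associated microglia, the state microglia take around plaques, were called in both directions. Of 29 tested, from 30 listed, 9 rose (31.0%, beside 22.5% of all genes tested) and 4 fell (13.8%, beside 21.0%), with a median of 0.03. Besides Fabp5, the members that rose most were Spp1, osteopontin, with a log2 fold change of 2.28 (SE 0.70, adjusted p = 0.0101), and Ank, a pyrophosphate exporter, with 1.79 (SE 0.35, adjusted p = 0.000205). Spp1 varied between replicates, with 10.24 and 8.29 in the WT Ki67+ and 9.96 and 7.38 in the APP/PS1 Ki67+ libraries. Without the first WT Ki67+ library Spp1 (adjusted p = 0.0917) was not called and 2 members fell. The lectin Lgals3 (-1.70, SE 0.40, adjusted p = 0.00144) and the lysosomal proteases Ctsd (-1.12, SE 0.20, adjusted p = 6.47e-05) and Ctsz (-0.62, SE 0.20, adjusted p = 0.0115) fell most. Ctsd had a level of 13.62 and 13.64 in the WT Ki67+, 15.63, 15.74 and 15.73 in the WT Ki67-, 16.53 and 16.25 in the APP/PS1 Ki67+ and 16.39 and 16.36 in the APP/PS1 Ki67- libraries, with lower Ki67+ values in WT and overlapping values in APP/PS1 (difference between genotypes 2.09, SE 0.40, adjusted p = 0.0048). The mean level of the list was 10.86 and 10.84 in the WT Ki67+ and 10.54, 10.72 and 10.13 in the WT Ki67- libraries, and 12.40 and 11.73 in the APP/PS1 Ki67+ and 11.83 and 11.72 in the APP/PS1 Ki67- libraries, with all APP/PS1 libraries above all WT libraries. In WT 8 rose and 5 fell (3 without the first WT Ki67+ or the second WT Ki67- library), and in APP/PS1 1 rose and 0 fell.

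Lysosomal genes were called somewhat less often than all genes. Of 54 tested 9 rose (16.7%, beside 22.5%) and 10 fell (18.5%, beside 21.0%), with a median of -0.25. In WT 8 rose and 14 fell, with 3 higher without the second WT Ki67+ library and 5 higher and 9 lower without the first, and in APP/PS1 1 rose and 0 fell. Atp6v1h, a subunit of the proton pump, rose by 1.20 (adjusted p = 0.00516) and the membrane protein Lamp1 by 0.92 (adjusted p = 0.000332). Besides Ctsd, Asah1, acid ceramidase, had a log2 fold change of -0.92 (SE 0.23, adjusted p = 0.00215).

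Genes of the inflammasome and of cytokine signalling were more often lower than higher in Ki67+ cells. Of 27 tested 2 rose (7.41%, beside 22.5% of all genes tested) and 13 fell (48.1%, beside 21.0%, median -0.49), with 1 and 10 in WT and 1 and 0 in APP/PS1, and without the second WT Ki67+ library 7 fell. Il1b, the cytokine interleukin-1 beta, had a level of 7.03 and 8.15 in the WT Ki67+, 10.82, 10.13 and 8.73 in the WT Ki67-, 10.46 and 9.34 in the APP/PS1 Ki67+ and 11.31 and 10.84 in the APP/PS1 Ki67- libraries and a log2 fold change of -1.79 (SE 0.47, adjusted p = 0.00296). The 4 Ki67+ and 5 Ki67- values overlapped. Pycard, the inflammasome adaptor ASC, had a log2 fold change of -0.70 (SE 0.26, adjusted p = 0.0349), with -1.46 in WT (adjusted p = 0.00208) and 0.22 in APP/PS1 (adjusted p = 0.772). Nlrp3, the sensor, had Ki67+ values of 7.12, 6.71, 8.21 and 7.66 and a log2 fold change of 0.30 (SE 0.27, adjusted p = 0.372), and Irf1 one of -0.20 (SE 0.25, adjusted p = 0.539). Tlr2, a sensor of bacterial lipoproteins, had -1.23 (SE 0.29, adjusted p = 0.00137) and the transcription factor Irf5 -1.02 (SE 0.21, adjusted p = 0.000291). The 2 that rose were Irak4, a kinase below the Toll-like receptors (1.77, SE 0.26, adjusted p = 5.15e-06), and Il18 (0.85, SE 0.29, adjusted p = 0.0207). Pycard (adjusted p = 0.314 without the second WT Ki67+ library) and Il18 (adjusted p = 0.0547 without the first) lost their calls with 1 library left out.

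Antigen presentation and interferon genes were mostly not called. Of 18 antigen presentation genes 1 rose (5.56%, beside 22.5% of all genes tested) and 3 fell (16.7%, beside 21.0%). More fell without the first APP/PS1 Ki67+ or the second APP/PS1 Ki67- library. The gene that rose was Psmb9, an immunoproteasome subunit (0.84, SE 0.26, adjusted p = 0.0112). The 3 that fell were the class II chains H2.Eb1 and H2.Ab1, spelled with a dot in the table, and their invariant chain Cd74. Their log2 fold changes were -2.60 (SE 0.55, adjusted p = 0.000457) for H2.Eb1, -2.23 (SE 0.55, adjusted p = 0.00198) for Cd74 and -2.10 (SE 0.39, adjusted p = 0.000102) for H2.Ab1. Cd74 ranged from 8.06 to 11.69 in Ki67+ and from 10.09 to 13.25 in Ki67- libraries, so that the groups overlapped. Psmb9 was not called without the second WT Ki67+ library (adjusted p = 0.0587). Of 21 interferon-stimulated genes, from 24 listed, 3 rose (14.3%, beside 22.5% of all genes tested) and 1 fell (4.76%, beside 21.0%), with a list median of 0.19. Xaf1 (1.62), Ifi27l2a (0.82) and Bst2 (0.51) rose, and Irf7 fell (-0.66, adjusted p = 0.05, just under the threshold before rounding). Ifi27l2a, Bst2 and Irf7 lost their calls without the second WT Ki67+ library (adjusted p = 0.135, 0.0687 and 0.304). Of 25 immediate early and dissociation genes 0 rose and 6 fell (24.0%, beside 21.0% of all genes tested, median -0.37), with 6 lower in WT and 0 called by limma in APP/PS1 (0 at an unadjusted p under 0.05), and 2 fell in the blocked comparison without either WT Ki67+ library. Ier5 had a log2 fold change of -1.15 (SE 0.35, adjusted p = 0.00847), Egr1 -0.94 (SE 0.26, adjusted p = 0.00486) and the heat shock gene Dnajb1 -0.89 (SE 0.35, adjusted p = 0.0383), and the last 2 lost their calls without the first WT Ki67+ library (adjusted p = 0.0691 and 0.0871).

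Genes for ribosomes and respiration showed no common direction in the blocked comparison. Of 79 cytosolic ribosomal protein genes 4 rose (5.06%, beside 22.5% of all genes tested) and 9 fell (11.4%, beside 21.0%, median -0.09), with 3 and 23 in WT (14 lower without the second WT Ki67+ library, median -0.53) and 2 and 0 in APP/PS1 (median 0.34). The difference between genotypes was called for 4 of the 79 (5.06%, beside 2.63% of all genes tested), with 0 without the first APP/PS1 Ki67+ and 13 without the third WT Ki67- library. Without 1 library 2 (second WT Ki67+) to 14 (first APP/PS1 Ki67+) fell in the blocked comparison. Rps25 (1.03), Rpl28 (0.73) and Rpl15 (0.67) rose most and Rpl21 (-1.68), Rpl10a (-1.10) and Rpl13a (-0.93) fell most, and since these genes have near copies in the genome their values are uncertain. Of 75 nuclear genes of oxidative phosphorylation (median -0.03) 12 rose (16.0%), led by Ndufb2 (1.52), Uqcrfs1 (1.51) and Ndufa11 (1.43), and 11 fell (14.7%), led by Ndufb6 (-1.10), Ndufa7 (-0.96) and Cox6b1 (-0.88), with 6 lower without the first WT Ki67+ library. The 13 mitochondrially encoded genes were not analysed here.

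Markers of other brain cells rose with Ki67, although the gate required CD11b and CD45. Of 24 tested astrocyte genes, from 25 listed, 21 rose (87.5%, beside 22.5% of all genes tested) and 1 fell (median 1.85), and of 19 genes of oligodendrocytes and myelin 18 rose (94.7%) and 0 fell (median 2.00). The calls stood in both genotypes, with 14 and 19 of the astrocyte genes higher in WT and in APP/PS1, and 10 and 17 of the oligodendrocyte genes (10 in APP/PS1 without the second APP/PS1 Ki67+ library). Slc1a2, the glutamate transporter of astrocytes, had a level of 12.03 and 11.52 in the WT Ki67+, 8.23, 10.44 and 9.82 in the WT Ki67-, 11.51 and 11.16 in the APP/PS1 Ki67+ and 6.62 and 8.17 in the APP/PS1 Ki67- libraries and a log2 fold change of 3.03 (SE 0.40, adjusted p = 1.28e-06). Clu, clusterin, had a log2 fold change of 2.95 (SE 0.37, adjusted p = 7.07e-07) and Sparcl1, a synapse-promoting protein, one of 2.80 (SE 0.24, adjusted p = 4.49e-09), while Glul, glutamine synthetase, was the one member that fell (-0.82, SE 0.23, adjusted p = 0.00609). Gfap, the filament protein that defines reactive astrocytes, stayed between 5.49 and 6.44 in Ki67+ and between 5.40 and 5.96 in Ki67- libraries, around the floor of the scale, and did not pass the filter.

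Olig1, a transcription factor of the oligodendrocyte lineage, had a level of 10.86 and 10.12 in the WT Ki67+, 7.76, 7.78 and 9.28 in the WT Ki67-, 10.56 and 11.05 in the APP/PS1 Ki67+ and 7.02 and 6.93 in the APP/PS1 Ki67- libraries. All 4 Ki67+ values lay above all Ki67- values, and the log2 fold change was 2.95 (SE 0.31, adjusted p = 6.06e-08). Mobp, a myelin protein, had a log2 fold change of 2.64 (SE 0.43, adjusted p = 2.71e-05). The mean level of the oligodendrocyte list was 11.04 and 10.72 in the WT Ki67+, 9.75, 8.85 and 10.47 in the WT Ki67-, 11.18 and 11.80 in the APP/PS1 Ki67+ and 8.45 and 8.47 in the APP/PS1 Ki67- libraries. That of the astrocyte list was 10.31 and 9.91, 8.43, 8.80 and 9.20, 10.10 and 10.17 and 7.80 and 8.15 in the same order. Both lists were higher in every Ki67+ library than in any Ki67- library, and at most 2 of 19 and 6 of 24 genes were under 7 in any library. The part that RNA of other cells has in the other results was not tested.

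Other cell types were less uniform. Of 9 oligodendrocyte precursor genes 3 were tested, and Cspg4 (2.06) and Ptprz1 (1.96) rose and Pdgfra (-1.28) fell. Of 15 endothelial and mural genes, from 22 listed, 9 rose (60.0%, beside 22.5% of all genes tested) and 2 fell (13.3%, beside 21.0%, median 1.07). Under 7 were 12, 11 and 6 of the 15 in the WT Ki67- and 10 and 10 in the APP/PS1 Ki67- libraries. In the Ki67+ libraries these were 1 and 6 in WT and 1 and 4 in APP/PS1. Members low in Ki67- cells passed the filter through the Ki67+ libraries, which favours calls of a rise. Acta2, smooth muscle actin (3.19, SE 0.41, adjusted p = 9.43e-07), Egfl7 (2.05, SE 0.44, adjusted p = 0.000489) and the tight junction gene Cldn5 (1.97, SE 0.40, adjusted p = 0.000333) rose most. Pecam1 (-1.10) and Kdr (-0.90) fell. Of 14 tested neuronal genes, from 26 listed, 4 rose (28.6%, beside 22.5% of all genes tested) and 7 fell (beside 21.0%, median -0.75). Between 4 and 7 of the 14 were under 7 in each library. Members low in some groups may have passed the filter through others, and these counts hold that selection. Gria1, a glutamate receptor subunit (2.26), Map2, a dendritic microtubule protein (2.12), and Elavl3 (1.14) rose most, and Snap25, a synaptic vesicle fusion protein (-1.91), the nuclear marker Rbfox3 (-1.86) and the noncoding RNA Meg3 (-1.52) fell most. Meg3 was not called without the second WT Ki67+ library (adjusted p = 0.376) or with values raised to the floor (adjusted p = 0.0919), and Kdr not without the first (adjusted p = 0.0537). The mean level of the neuronal list stayed between 6.66 and 7.40 in all 9 libraries.

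Of 10 ependymal and choroid plexus genes, from 11 listed, 0 rose and 3 fell (30.0%, beside 21.0% of all genes tested, median -0.58). Those that fell were Ttr, transthyretin (-1.92, SE 0.71, adjusted p = 0.0295), Kl (-1.82) and Folr1 (-1.35). Of 10 border-associated macrophage genes 0 rose and 4 fell (40.0%, beside 21.0%, median -0.78), led by Cbr2 (-1.74), Stab1 (-1.73) and F13a1 (-1.46). Without the second WT Ki67+ library Ttr, Folr1 and F13a1 (adjusted p = 0.13, 0.052 and 0.0608) were not called, which left 1 ependymal and 2 macrophage genes lower. Of 12 blood leukocyte genes, from 20 listed, 3 rose (25.0%, beside 22.5% of all genes tested) and 5 fell (41.7%, beside 21.0%, median -0.50). Cd79a (1.32), Adam19 (1.32) and Ccr2 (1.21) rose. The neutrophil granule genes Ngp, S100a8 and Camp fell most, with log2 fold changes of -4.42 (SE 1.09, adjusted p = 0.0019), -3.23 (SE 1.09, adjusted p = 0.0183) and -2.77 (SE 0.84, adjusted p = 0.00902). Ngp had a level of 3.31 and 3.07 in the WT Ki67+, 12.64, 9.60 and 9.45 in the WT Ki67-, 9.58 and 7.85 in the APP/PS1 Ki67+ and 8.32 and 10.84 in the APP/PS1 Ki67- libraries. It was under the floor in both WT Ki67+ libraries, and the APP/PS1 groups overlapped. S100a8 (adjusted p = 0.0562) was not called with such values raised to the floor, and without either WT Ki67+ library 1 leukocyte gene fell, with S100a8 and Camp not called (adjusted p = 0.147 and 0.113 without the first). Ccr2 was not called without the second (adjusted p = 0.0609).

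The effect of Ki67 differed between genotypes for some genes, most of them lower in Ki67+ cells of WT mice. Limma called 351 genes (2.63%) with a higher Ki67 effect in APP/PS1 than in WT mice and 80 (0.599%) with a lower one. A gene could be called in both genotypes, so the following counts overlap. Of the 351, 327 fell and 3 rose in Ki67+ cells of WT mice, 24 rose and 5 fell in those of APP/PS1 mice, and 4 were called in neither. Of the 80, 74 rose and 0 fell in WT, 7 rose and 6 fell in APP/PS1 mice, and 1 was called in neither. The WT Ki67+ mean was under 6 for 88 of the 351 (25.1%). The counts fell to 120 and 22 without the second WT Ki67+ library and to 67 and 7 without the first APP/PS1 Ki67+ library. Among the 5 largest positive differences were Mal, a myelin protein (4.24, SE 0.92, adjusted p = 0.0105), Sh3bp4, an endocytosis adaptor (3.72, SE 0.66, adjusted p = 0.00356), Aplp1, a neuronal relative of the amyloid precursor protein (3.63, SE 0.63, adjusted p = 0.00314), and Ptgds, prostaglandin D synthase (3.40, SE 0.96, adjusted p = 0.0475). Mal had a level of 10.76 and 10.36 in the WT Ki67+, 11.21, 9.54 and 12.16 in the WT Ki67-, 11.91 and 13.01 in the APP/PS1 Ki67+ and 8.62 and 8.65 in the APP/PS1 Ki67- libraries, and Aplp1 one of 12.27 and 11.52 in the WT Ki67+, 9.96, 10.15 and 11.50 in the WT Ki67-, 12.42 and 13.02 in the APP/PS1 Ki67+ and 7.96 and 7.51 in the APP/PS1 Ki67- libraries. In Mal the WT groups overlapped and the APP/PS1 groups were separated by over 3 units, while in Aplp1 the Ki67+ values were higher in both genotypes. Sh3bp4 had a level of 4.69 and 4.30 in the WT Ki67+, 8.51, 8.50 and 7.87 in the WT Ki67-, 7.85 and 6.88 in the APP/PS1 Ki67+ and 7.43 and 7.46 in the APP/PS1 Ki67- libraries, with both WT Ki67+ values below the floor. Without the second WT Ki67+ library Mal (adjusted p = 0.0513) and Ptgds (adjusted p = 0.16) were not called.

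The largest negative differences were in Zfp956, a zinc finger gene (-4.87, SE 0.72, adjusted p = 0.000552), Mad2l1bp, which silences the spindle checkpoint (-2.93, SE 0.53, adjusted p = 0.004), Fmn1, a formin (-2.90, SE 0.56, adjusted p = 0.00548), Stoml2, a mitochondrial membrane protein (-2.68, SE 0.60, adjusted p = 0.0137), and Armc7 (-2.66, SE 0.64, adjusted p = 0.0195). Zfp956 had a level of 10.28 and 9.62 in the WT Ki67+, 5.27, 5.06 and 5.80 in the WT Ki67-, 7.85 and 7.53 in the APP/PS1 Ki67+ and 7.91 and 8.07 in the APP/PS1 Ki67- libraries. The WT groups were separated by over 3 units and the APP/PS1 groups differed by less than 1. Mad2l1bp had a level of 9.66 and 9.82 in the WT Ki67+, 7.39, 6.83 and 7.83 in the WT Ki67-, 7.83 and 7.86 in the APP/PS1 Ki67+ and 8.08 and 8.68 in the APP/PS1 Ki67- libraries, with a WT log2 fold change of 2.39 (SE 0.36, adjusted p = 1.03e-05) and an APP/PS1 one of -0.53 (SE 0.39, adjusted p = 0.426). Without the second WT Ki67+ library Stoml2 (adjusted p = 0.0772) and Armc7 (adjusted p = 0.0912) were not called.

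Most genes called at 6 months were called in the same direction at each of the other ages, which have no library in common with it. The same direction was called at 4 months for 1916 of the 3005 higher genes (63.8%, and 57.0% of the 3359 called higher at 4 months, which are 25.1% of the genes tested) and for 1667 of the 2806 lower genes (59.4%, and 57.5% of the 2901 called lower, 21.7%). At 12 months it was called for 1885 higher genes (62.7%, and 53.2% of 3541, 26.5% of the genes tested) and 1562 lower genes (55.7%, and 52.7% of 2963, 22.2%). All 3 ages shared 1595 of the higher (53.1%) and 1292 of the lower genes (46.0%). Of the genes higher at 6 months, 78 were called lower at 4 months and 115 at 12 months. Of those lower at 6 months, 50 were called higher at 4 months and 82 at 12 months.

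The effect differed between 6 and 4 months for 602 genes with a higher effect at 6 months (4.50%) and 643 with a lower one (4.81%), and between 6 and 12 months for 772 (5.78%) and 853 (6.38%). Without the second WT Ki67+ library the lower counts were 285 and 493. Genes of oligodendrocytes and myelin had a higher effect at 6 months, with 16 of 19 called higher at 6 than at 4 months and 17 of 19 higher at 6 than at 12 months. Their median Ki67 effect was -0.26 at 4, 2.00 at 6 and -0.67 at 12 months. The largest positive differences from 4 months were in Tmem88b (3.22, SE 0.37, adjusted p = 7.12e-06), Mag, a myelin adhesion protein (2.93, SE 0.40, adjusted p = 3.6e-05), and Tubb4a, a tubulin of oligodendrocytes (2.85, SE 0.63, adjusted p = 0.00499), and among the 3 largest from 12 months were Ptgds (3.74, SE 0.61, adjusted p = 0.000218) and Qdpr, which regenerates tetrahydrobiopterin (3.32, SE 0.35, adjusted p = 1.36e-06). Mag had a level at 6 months of 11.95 and 11.60 in the WT Ki67+, 10.34, 10.26 and 11.38 in the WT Ki67-, 12.49 and 13.26 in the APP/PS1 Ki67+ and 9.01 and 9.28 in the APP/PS1 Ki67- libraries, with a Ki67 effect of -0.62 at 4 months.

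Microglial genes moved the other way between ages. Of the pan-microglial list 17 of 25 had a lower effect at 6 than at 4 months and 12 of 25 than at 12 months, and of the homeostatic list 11 and 7 of 29. Without the second WT Ki67+ library these counts were 3, 3, 3 and 2, and without the first WT Ki67+ library 6 genes of either list had a lower effect than at 4 months. Without 1 of the APP/PS1 libraries the homeostatic counts were 14 or 15 and 9 to 11. The median effect of the pan-microglial list was -0.15 at 4 and -0.22 at 12 months. Astrocyte genes were higher in Ki67+ cells at each age, with 23 of 24 called at 4 and at 12 months, and their effect was lower at 6 months for 11 and 9 genes (6 and 4 without the second WT Ki67+ library). Genes of G2 and mitosis were higher at each age as well, with 37 of 49 called at 4 and 37 at 12 months and medians of 0.92 and 1.20, and the effect was lower at 6 months for 8 genes against either age (2 and 5 without the second WT Ki67+ library, and 14 and 13 against 12 months without the first APP/PS1 Ki67+ or the first APP/PS1 Ki67- library). As background for these astrocyte and mitotic counts, 25.1% of all genes tested were called higher at 4 months and 26.5% at 12 months. At 6 months the mitotic share was 38.8% beside 22.5% in the blocked comparison, but 8.16% beside 5.90% in APP/PS1 mice alone. The same 3 genes had the largest negative differences against both ages. For Ttr the difference was -5.79 (SE 0.86, adjusted p = 0.000117) against 4 months and -6.18 (SE 0.89, adjusted p = 6.43e-05) against 12 months. For Snap25 it was -3.05 (SE 0.47, adjusted p = 0.000193) and -3.73 (SE 0.49, adjusted p = 2e-05), and for Ly6a -3.03 (SE 0.63, adjusted p = 0.00321) and -3.41 (SE 0.66, adjusted p = 0.00119), the former not called with values raised to the floor (adjusted p = 0.068). The first of these had a level at 6 months of 9.66 and 8.85 in the WT Ki67+, 11.66, 11.50 and 12.50 in the WT Ki67-, 9.98 and 9.97 in the APP/PS1 Ki67+ and 11.48 and 10.59 in the APP/PS1 Ki67- libraries, below in every Ki67+ library, while its Ki67 effect was 3.88 at 4 and 4.26 at 12 months.

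**Figure D5:**
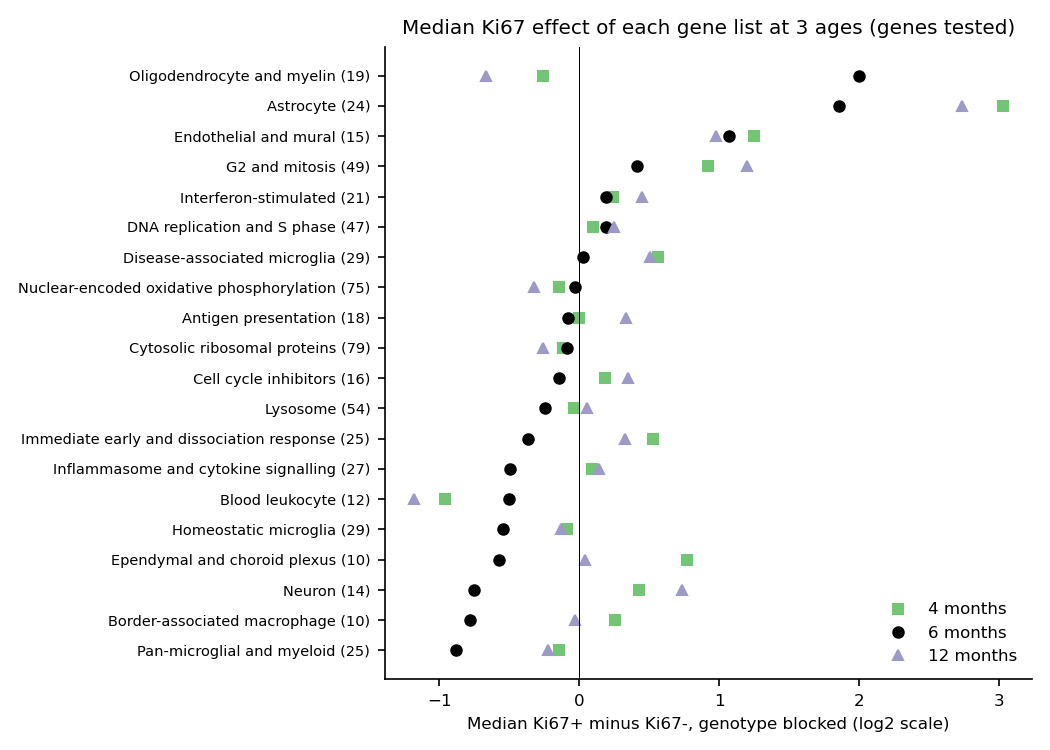
Median Ki67+ minus Ki67- log2 fold change with genotype blocked (x axis) of the gene lists with at least 10 tested genes (y axis, number tested in brackets) at 4, 6 and 12 months. Oligodendrocyte and myelin genes have a median of 2.00 at 6 months and lie below 0 at the other ages, and pan-microglial genes have their lowest median at 6 months.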

How the data were processed

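Sorted microglia were profiled by RNA sequencing of fixed cells. The authors quantified read 1 (75 bases, bcl2fastq 2.20) with kallisto 0.43.1 on GRCm38, normalized gene counts with DESeq2 and removed 10 surrogate variables. The deposited values, recorded here as a score, are on a log2 scale, are not counts and give no depth, so no counting interval can be made. They run from 3.07 to 18.35, and 0 columns were unmatched. The table has rank 32 of 42, and deviations from the 12 group means have rank 20.

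Group means were fitted to all 42 libraries with limma 3.58.1 in R 4.3.3 (lmFit, eBayes), and the directions the authors had taken out were charged to the error term, leaving 20 residual and 7.85 prior degrees of freedom. Benjamini-Hochberg adjustment ran over 13363 genes, at an FDR of 0.05. All directions lost lie within groups and none between them, as when surrogate variables are removed with the groups protected, and this favours the real groups in any p-value. Within-genotype differences were weighted by 0.545 (WT) and 0.455 (APP/PS1). The fit was tested on simulated data. No 2 libraries held identical values. Single-read and paired-end runs are not told apart by the labels.

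The comparison and the gene lists were chosen with earlier results of these data known. Genes named are Mki67, the genes the study names for 6 months and its microglial markers P2ry12 and Tmem119. The others are the 12 called genes per direction with the largest change and no overlap, up to 3 per direction and list, 5 per sign for the genotype and 3 for each age difference, without clone names. Of these, 4 genes are not reported here. Lists are described by counts and medians, with no test. Positions came from GENCODE M21 and promoters from RefSeq (GRCm38.p6). Alternatives were the 9 libraries alone, other degrees of freedom, no filter or a minimum of 8, eBayes with trend and robust options, median subtraction, leaving out each library and, added after seeing the data, raising values under 6.3 to it. Figures were drawn with matplotlib 3.10.9 in Python 3.11.15.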

Additional observations from a re-analysis of the deposited data

Results flagged for a closer look

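The Ki67 effect at 6 months differed between genotypes, by limma's test of the interaction, for 351 genes with a higher effect in APP/PS1 mice and 80 with a lower one. Among the largest differences, APP/PS1 minus WT, were Mal (4.24), Sh3bp4 (3.72), Aplp1 (3.63) and Ptgds (3.40), and Zfp956 (-4.87), Mad2l1bp (-2.93), Fmn1 (-2.90), Stoml2 (-2.68) and Armc7 (-2.66).

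Between ages, limma's test of the difference gave 602 genes with a higher and 643 with a lower Ki67 effect at 6 than at 4 months. Tmem88b (3.22), Mag (2.93) and Tubb4a (2.85) were highest, and Ttr (-5.79), Snap25 (-3.05) and Ly6a (-3.03) lowest. Against 12 months 772 genes had a higher and 853 a lower effect, with Ptgds (3.74) and Qdpr (3.32) among the 3 highest and Ttr (-6.18), Snap25 (-3.73) and Ly6a (-3.41) lowest. The groups at 6 months hold 2 or 3 libraries each, too few for a check of single libraries against their group.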

How the results depend on the processing

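With every library kept, the blocked and WT counts stayed within 1.5 times their value under each other setting tried. Leaving the removed directions uncounted gave 1683 higher and 1184 lower genes in APP/PS1, 1090 and 575 for the genotype difference, 1351 and 1569 for 6 against 4 months and 1578 and 1851 for 6 against 12 months. The 9 libraries alone gave 136 and 26 for the genotype difference, where fewer libraries enter. Raising values under 6.3 to it gave 2982 and 2662 in the blocked comparison and 239 and 73 for the genotype difference. Subtracting each library's median moved the median of all genes by less than 0.1.

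With 1 library left out, the blocked counts ran from 2462 to 2987 higher and from 2083 to 2863 lower, the WT counts from 1832 to 2749 and from 1751 to 2795, and the APP/PS1 counts from 306 to 893 and from 78 to 486. The genotype difference ran from 67 to 413 and from 7 to 120, that of 6 against 4 months from 430 to 642 and from 285 to 746, and that of 6 against 12 months from 583 to 822 and from 493 to 939. A group left with 1 library is assumed to vary like the other groups. The Mki67 difference ran from -0.24 to 0.21, and its sign turned without the second WT Ki67+ library (0.009), the second APP/PS1 Ki67+ library (0.21) or the second APP/PS1 Ki67- library (0.16). Irf1 ran from -0.36 to 0.019, the latter without the second WT Ki67+ library. The cause was not tested. Among named genes, 81 tests lost and 3 gained a call with 1 library left out.

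No paired analysis was possible because the labels carry no replicate numbers, and those used here only name the libraries. Low genes are limited by the floor of the scale, and read depth is not known.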
